A study of Mus musculus with 3 samples.

Results

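Amino acid transporters of 4 solute carrier families were examined in E14 mouse ESCs. The genes were taken by name, as every listed member of *Slc1a*, *Slc7a*, *Slc38a* and *Slc43a* except 1 *Slc38a* gene that the rule leaves out. This gave 35 of the 23953 genes listed, with 7 *Slc1a*, 15 *Slc7a*, 10 *Slc38a* and 3 *Slc43a* genes. They were grouped by what their proteins carry, from general knowledge, into 8 groups. Their measured levels played no part in the choice.

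These proteins move amino acids across membranes. *Slc1a* carriers couple glutamate, aspartate or small neutral amino acids to the sodium gradient. *Slc38a* carriers bring in glutamine and other small neutral amino acids with sodium. Most *Slc7a* carriers exchange one amino acid for another and need a heavy chain, Slc3a2 or Slc3a1, to reach the cell surface, whereas the cationic carriers Slc7a1, Slc7a2 and Slc7a3 act alone. *Slc43a* carriers let large neutral amino acids, or in the case of Slc43a3 purine nucleobases, pass down their gradient. Mouse ESCs are known to depend on threonine breakdown and to use much glutamine, and leucine and arginine that enter through these carriers are read by the growth kinase complex mTORC1.

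RNA-seq was performed on 3 libraries, 1 per condition, in E14 cells cultured with LIF, serum and added glutamine. The labels give all 3 samples a doxycycline-inducible and a tamoxifen-inducible construct, which are a transgenic mouse *Oct4* and the Cre recombinase CreER(T2). WT cells were compared with cells of a line with loxP sites around both copies of the *Oct4* distal enhancer (DE), given 4-OH tamoxifen alone (Tam) or along with doxycycline (DoxTam), both for 48 h. The floxed lines were expanded from single clones, and the sources used here do not say if the WT library was of parental or of untreated floxed cells. Levels were FPKM (fragment counts scaled to transcript length and library size), so they may be compared between genes. With 1 library per condition there was no replicate check and no p-value, so a fold tells of 2 libraries and no more. Folds are log2 ratios of FPKM + 1, and a gene entered a comparison if either library held it at 1 FPKM or above. Higher and lower mean a difference of at least 1.5-fold wherever genes are counted.

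The libraries were unequal. Depth, estimated from the smallest levels above 0, was about 15400000 fragments in WT, 6900000 in Tam and 8700000 in DoxTam, and 22.3%, 15.3% and 27.7% of genes were listed at 0. *Pou5f1*, the gene of *Oct4*, stood at 664 FPKM in WT and at 529 and 458 FPKM in the libraries labelled Tam and DoxTam. On the deposited scale the library labelled as given doxycycline, which switches the transgene on, thus had the least, against its label. After rescaling the libraries to the same summed FPKM, the log2 fold of *Pou5f1* to WT was -0.18 in Tam and -0.17 in DoxTam, nearly equal. By qPCR the paper reports near loss of *Oct4* in the line with both copies deleted after tamoxifen alone, and its return with doxycycline. The Tam library did not show such a loss, with a log2 fold of -0.33 as deposited. Why the library and the qPCR differ was not tested. Every direction given below for Tam or DoxTam is that of the library labelled so. All 8 ESC markers were present and none was past 1.5-fold, with sums of 2832, 2589 and 2588 FPKM. The 6 fibroblast markers summed to less than 1 FPKM in each library, and *Col3a1*, *Lum* and *Dcn* were at 0 in WT. Of 6 trophectoderm markers, *Cdx2* (0.639, 2.82 and 0.128 FPKM in WT, Tam and DoxTam) and *Gata3* (0.0980, 1.77 and 0.213 FPKM) were higher in Tam than in WT, and the 6 summed to 11.3, 14.3 and 10.5 FPKM. In DoxTam against WT *Eomes* was higher and *Tfap2c* lower. The part of these markers in the transporter levels was not tested.

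The 35 transporter genes split into an expressed and a nearly silent set. In WT, 7 were at 25 FPKM or more, 6 lay between 5 and 25 FPKM, 6 between 1 and 5 FPKM and 16 under 1 FPKM. The corresponding numbers were 7, 6, 7 and 15 in Tam and 6, 7, 6 and 16 in DoxTam. In total 20 genes reached 1 FPKM somewhere. The summed level of all 35 was 387 FPKM in WT, 369 FPKM in Tam and 390 FPKM in DoxTam. On the deposited scale the total thus moved little while its makeup shifted. Summed FPKM over all genes was highest in WT and lowest in DoxTam, so rescaling to the same total raises both treated sums, that of DoxTam most. *Slc7a5* was the highest transporter gene in WT, with 19.5% of the sum, ahead of *Slc38a2* with 16.7%. In Tam the order was the opposite, with 28.2% for *Slc38a2* and 12.3% for *Slc7a5*, and in DoxTam the shares were 24.1% and 13.9%. No replicate spread is available to say which neighbours in this order differ.

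**Figure D1:**
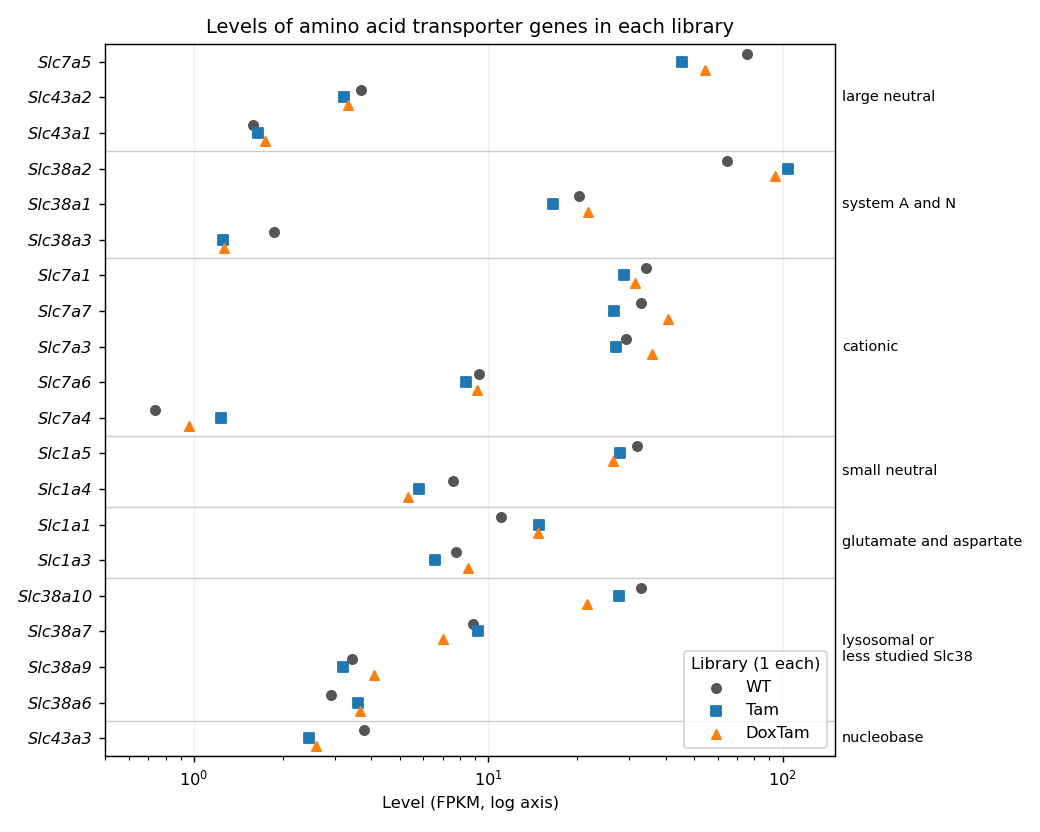
Levels of the 20 transporter genes that reached 1 FPKM in any library, on a log axis of FPKM, with 1 point per library and genes grouped by substrate. *Slc7a5* is the highest gene in WT (75.6 FPKM), and *Slc38a2* is the highest in Tam (104 FPKM) and DoxTam (94.1 FPKM).

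Between Tam and WT, *Slc38a2* was the only transporter gene past 1.5-fold upward and *Slc7a5* the only one downward, of 20 compared. Among the 12686 genes compared, 6.99% were higher and 3.59% were lower, so 1 of 20 in each direction was near the background. The median log2 fold of the 20 was -0.17, against 0.02 over all genes, and 6 lay above 0 and 14 below, while 52.6% of all genes lay above 0. After rescaling to the same total the 2 medians were -0.04 and 0.15, and with no filter on low genes 0 and 0.04. Between DoxTam and WT no transporter gene was higher and only *Slc38a10* was lower, of 19 compared. The background was 4.12% higher and 5.78% lower among 12364 genes. Their median was -0.02 beside -0.0028 over all genes, with 9 above 0 and 10 below. Both comparisons use the same WT library. Between DoxTam and Tam, *Slc7a7* was higher and none was lower, of 20 compared, with 2.09% of 12628 genes higher and 5.73% lower. There 13 lay above 0 and 7 below, with a median of 0.04 beside -0.02 over all genes. The median size of the fold in either direction was 0.24 for transporter genes and 0.22 for all genes in Tam against WT, 0.28 and 0.24 in DoxTam against WT, and 0.13 and 0.18 in DoxTam against Tam.

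**Figure D2:**
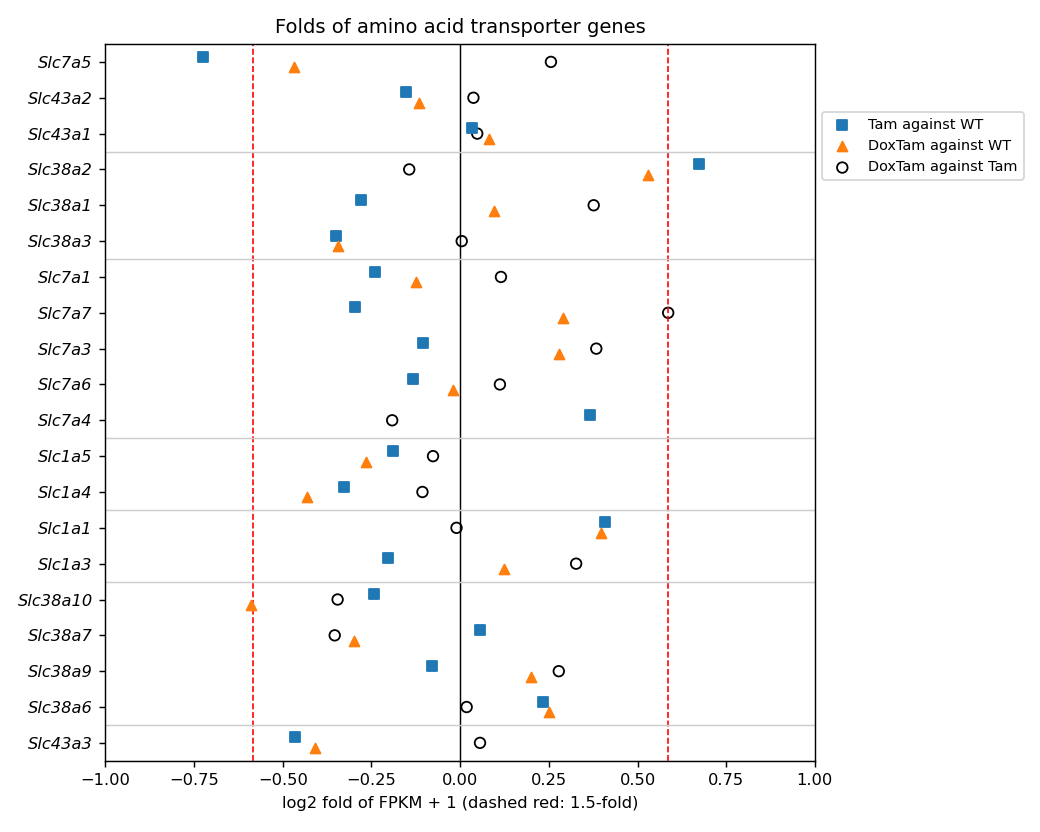
Log2 folds of FPKM + 1 for the 20 transporter genes that reached 1 FPKM, in the 3 comparisons, with dashed lines at 1.5-fold and 1 pair of libraries per point. *Slc38a2* (0.67) and *Slc7a5* (-0.72) stand outside the lines in Tam against WT, *Slc38a10* (-0.59) in DoxTam against WT and *Slc7a7* (0.59) in DoxTam against Tam. *Slc7a4* was under 1 FPKM in both WT and DoxTam and has no point for that comparison.

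How libraries are scaled moves all genes together. Small RNA genes held 63.9% of the summed FPKM in WT, 59.9% in Tam and 53.9% in DoxTam. Rescaling to the same total shifted the median log2 fold of all genes to 0.15 in Tam against WT, 0.32 in DoxTam against WT and 0.17 in DoxTam against Tam, and rescaling without these small RNA genes left it at 0.02, 0.0045 and -0.0069. Under the first, 2 of 20 transporter genes changed sign in Tam against WT (*Slc38a9* and *Slc7a3*), 5 of 19 in DoxTam against WT (*Slc1a5*, *Slc38a7*, *Slc43a2*, *Slc7a1* and *Slc7a6*) and 4 of 20 in DoxTam against Tam (*Slc1a1*, *Slc1a4*, *Slc1a5* and *Slc38a2*). Under the other, only *Slc1a1* did, in DoxTam against Tam, where its fold was near 0. Levels are given as deposited from here on.

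The 1.5-fold line ran close to several genes. In Tam against WT the nearest genes inside it were *Slc43a3* at 1.38-fold lower and *Slc1a1* at 1.33-fold higher. In DoxTam against WT *Slc38a10* was outside it at 1.504-fold lower, and *Slc38a2* at 1.44-fold higher and *Slc7a5* at 1.38-fold lower were inside. In DoxTam against Tam *Slc7a7* was outside at 1.502-fold higher, and *Slc7a3* was inside at 1.30-fold.

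The sequences before the start sites of *Slc38a2*, *Slc7a7* and *Slc38a10* are shown because these are genes past the line for which the table of RefSeq starts (GRCm38.p6) has an entry, a choice made after their values were seen. *Slc7a5* has none in that table. Each is the 250 bases before the start, 5′ to 3′ on the strand of the gene. Capitals mark TGATGNAA, the core of the amino acid response element that ATF4 binds.
Slc38a2, chr15:96699729-96699978, minus strand: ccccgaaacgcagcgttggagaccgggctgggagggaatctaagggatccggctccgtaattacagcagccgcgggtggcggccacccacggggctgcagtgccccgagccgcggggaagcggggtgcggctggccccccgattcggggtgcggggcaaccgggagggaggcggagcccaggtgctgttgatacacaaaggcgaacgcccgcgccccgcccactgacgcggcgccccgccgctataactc
Slc7a7, most upstream of its starts, chr14:54417945-54418194, minus strand: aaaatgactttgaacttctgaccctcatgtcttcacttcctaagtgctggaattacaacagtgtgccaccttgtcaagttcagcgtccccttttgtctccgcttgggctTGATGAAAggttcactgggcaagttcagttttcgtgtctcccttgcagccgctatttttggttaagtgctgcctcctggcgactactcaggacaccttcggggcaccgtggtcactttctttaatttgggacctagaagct
Slc38a10, chr11:120151352-120151601, minus strand: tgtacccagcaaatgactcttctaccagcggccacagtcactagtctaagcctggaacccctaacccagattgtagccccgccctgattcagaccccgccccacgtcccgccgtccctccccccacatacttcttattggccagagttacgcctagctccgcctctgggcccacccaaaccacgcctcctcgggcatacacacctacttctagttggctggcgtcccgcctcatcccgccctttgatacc
GC made up 72% of the *Slc38a2* sequence, 48.8% of the *Slc7a7* sequence and 60.4% of the *Slc38a10* sequence. In windows of 300 bases that run to just past the start, TGATGNAA was searched on both strands and was in 3.97% of all 32851 windows and in 4 of the 34 windows of the 25 transporter genes in the table. These 4 belonged to *Slc1a4*, *Slc7a11* and *Slc7a7*, so they were not 4 separate genes. The *Slc7a7* match at base 110 stands in capitals above, and the 250 bases before another of its starts held a match at base 8. CACGTG, the E-box core, was in 7.15% of all windows and in 6 of 34, at *Slc1a6*, *Slc1a7*, *Slc38a5*, *Slc38a7*, *Slc43a1* and *Slc7a14*. The windows of *Slc38a2* and *Slc38a10* held neither run of letters. Sequence beyond the windows, such as introns, was not searched, so matches elsewhere in these genes are not known from this search.

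Large neutral amino acids. *Slc7a5* encodes LAT1, which exchanges leucine and other large neutral amino acids for glutamine (mm9, chr8:124405046-124431586, minus strand). It was measured at 75.6 FPKM in WT, 45.4 FPKM in Tam and 54.4 FPKM in DoxTam, so both treated libraries lay below WT. The FPKM ratio to WT was 0.600 in Tam (95% counting interval 0.560 to 0.643) and 0.719 in DoxTam (0.678 to 0.763). DoxTam over Tam was 1.20 (1.11 to 1.30). These intervals rest on about 3856, 1037 and 1567 fragments and cover counting error only, not the spread between cultures. After rescaling all libraries to the same total, its log2 fold to WT was -0.58 in Tam, just inside 1.5-fold, and -0.11 in DoxTam. The facilitated carriers *Slc43a2* (3.70, 3.23 and 3.34 FPKM in WT, Tam and DoxTam) and *Slc43a1* (1.59, 1.65 and 1.74 FPKM) were low in every library and differed by less than 1.5-fold. *Slc7a8*, encoding LAT2, and *Slc7a15*, an aromatic-preferring carrier, were under 1 FPKM, so *Slc7a5* held 93.2%, 89.0% and 91.3% of the summed level of this group.

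*Slc3a2* encodes the heavy chain that carries LAT1 to the surface. It stood at 91.0 FPKM in WT, 63.7 FPKM in Tam and 74.5 FPKM in DoxTam. Like *Slc7a5*, it was lower in both treated libraries, by 0.51 and 0.29 on the log2 scale, but by less than 1.5-fold, and after rescaling to the same total it was above WT in DoxTam, at 0.07. Within a library the level of *Slc7a5* over that of *Slc3a2* was 0.831, 0.712 and 0.730, a ratio that no scaling of libraries can move. The other heavy chain, *Slc3a1*, which pairs with the cystine carrier Slc7a9, was at 0.731, 1.54 and 1.25 FPKM. On the log2 scale of FPKM + 1, which understates folds at such low levels, it was inside 1.5-fold of WT as deposited, at 0.55 and 0.38. After that rescaling it was past 1.5-fold, at 0.64 in Tam and 0.59 in DoxTam.

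Glutamine and other small neutral amino acids, systems A and N. *Slc38a2* encodes SNAT2, the sodium-coupled system A carrier that cells raise when amino acids run short (mm9, chr15:96517823-96530129, minus strand). It stood at 64.8 FPKM in WT, 104 FPKM in Tam and 94.1 FPKM in DoxTam. Both treated libraries lay above WT, with FPKM ratios of 1.61 in Tam (counting interval 1.53 to 1.68) and 1.45 in DoxTam (1.39 to 1.52). DoxTam stood at 0.904 times Tam (0.862 to 0.949), a direction that turned after rescaling to the same total (log2 fold 0.07), with about 4412, 3175 and 3620 fragments in the 3 libraries. *Slc38a1*, which encodes the related carrier SNAT1, had another pattern. Its level was 20.4, 16.6 and 21.8 FPKM, lowest in Tam, with a log2 fold to WT of -0.28 in Tam and 0.10 in DoxTam. *Slc38a3*, which encodes the system N carrier SNAT3, was at 1.87, 1.25 and 1.26 FPKM, from about 85 fragments or fewer, and *Slc38a5* of the same system was under 0.5 FPKM throughout. The summed level of the group was 87.5, 122 and 117 FPKM, of which *Slc38a2* made up 74.1%, 85.2% and 80.1%.

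The exchange of *Slc7a5* and *Slc38a2* at the top of the order can be restated, from the same levels, as a ratio within each library. *Slc7a5* stood at 1.17 times the level of *Slc38a2* in WT, at 0.436 times in Tam and at 0.578 times in DoxTam. This pair was chosen after its values were seen, and the ratio is not moved by depth or by rescaling. It can be moved by base composition, since the *Slc7a5* transcript is 56.3% GC and the *Slc38a2* transcript 43.7% GC.

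Folds over all genes leaned with GC content. In Tam against WT the median log2 fold was 0.24 in the tenth of genes lowest in GC and -0.19 in the tenth highest in GC. In DoxTam against WT the medians were 0.34 and -0.34, and in DoxTam against Tam 0.10 and -0.15. The trend at the GC content of *Slc38a2* was 0.14 in Tam and 0.23 in DoxTam, and at that of *Slc7a5* it was -0.11 and -0.22. With the trend removed, *Slc7a5* was at -0.61 in Tam and -0.25 in DoxTam, and *Slc38a2* at 0.54 and 0.30, so the directions were kept while *Slc38a2* came inside 1.5-fold in Tam. Whether the lean came from the libraries or from the cells cannot be told apart with 1 library per condition. The median GC content of the transporter transcripts was 51.4%, near the 50.7% of all genes.

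**Figure D3:**
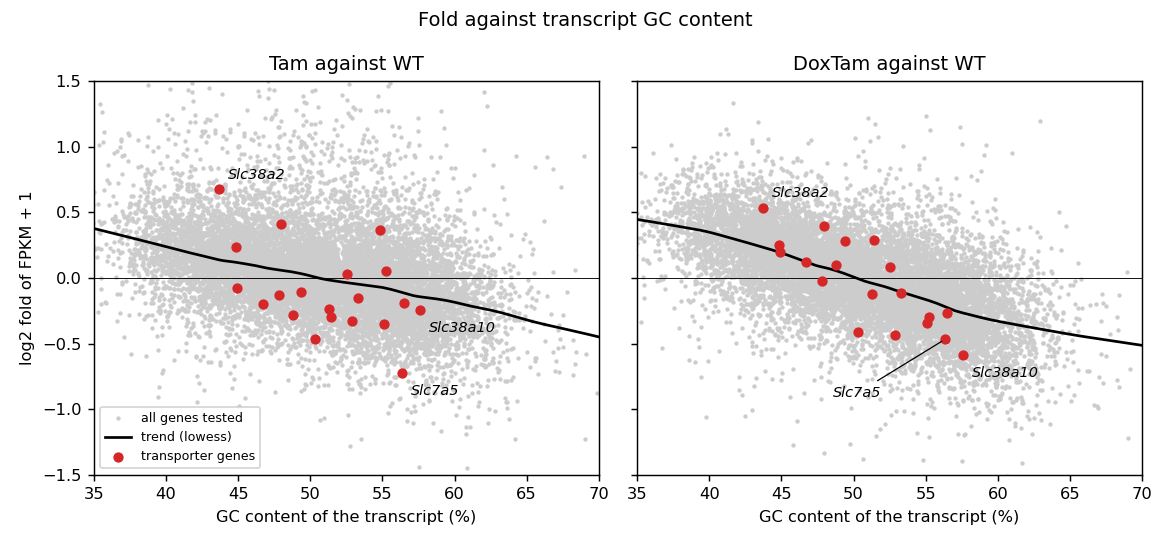
Log2 fold of FPKM + 1 against the GC content of the longest coding transcript, for all genes compared (grey), the transporter genes (red) and the lowess trend (line), each from 1 pair of libraries, with axes limited to the range that holds the transporter genes. The trend slopes downward in both panels, and *Slc38a2* lies above it and *Slc7a5* and *Slc38a10* below it in both.

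Cationic amino acids. This group had the largest summed level in WT, 107 FPKM, with 92.9 FPKM in Tam and 118 FPKM in DoxTam. *Slc7a1* encodes CAT1, the broadly expressed importer of arginine and lysine, and was at 34.3, 28.9 and 31.4 FPKM. *Slc7a3*, encoding the related CAT3, was at 29.3, 27.2 and 35.8 FPKM. The level of *Slc7a1* over *Slc7a3* within a library was 1.17 in WT, 1.06 in Tam and 0.878 in DoxTam, so *Slc7a3* was the higher of the pair only in DoxTam. *Slc7a2*, encoding CAT2, stayed under 0.3 FPKM, and the orphan *Slc7a14* under 0.1 FPKM.

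*Slc7a7* and *Slc7a6* encode y+LAT1 and y+LAT2, which pair with Slc3a2 and exchange cationic for neutral amino acids and sodium. *Slc7a7* (mm9, chr14:54980525-55036539, minus strand) was at 33.0 FPKM in WT, 26.7 FPKM in Tam and 40.6 FPKM in DoxTam. Tam thus held the lowest and DoxTam the highest level, with a DoxTam over Tam ratio of 1.52 (counting interval 1.34 to 1.73) from about 681 and 355 fragments. The ratio to WT was 0.809 in Tam (0.714 to 0.913) and 1.23 in DoxTam (1.11 to 1.36). With the GC trend removed, the log2 fold of DoxTam against Tam was 0.62. Exons of *Slc7a7* overlap *Oxa1l* on the other strand (22.9, 20.1 and 21.6 FPKM), and the sources used here do not say if reads were counted by strand, so reads of the pair may be shared. *Slc7a6* was at 9.31, 8.40 and 9.16 FPKM, a narrow range. *Slc7a7* over *Slc7a6* was 3.55 in WT, 3.18 in Tam and 4.43 in DoxTam. *Slc7a4*, whose transport activity is unclear, was at 0.735, 1.24 and 0.959 FPKM, from 35 fragments or fewer.

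Small neutral amino acids. *Slc1a5* encodes ASCT2, an exchanger best known for glutamine, and was at 32.0, 28.0 and 26.5 FPKM. *Slc1a4* encodes ASCT1, which prefers alanine, serine and cysteine, and was at 7.55, 5.82 and 5.34 FPKM. Both were highest in WT and lowest in DoxTam, with ratios to WT of 0.873 (0.785 to 0.969) and 0.826 (0.749 to 0.913) for *Slc1a5* and 0.771 (0.637 to 0.933) and 0.707 (0.589 to 0.845) for *Slc1a4*. All these differences were under 1.5-fold, and after rescaling to the same total *Slc1a5* was above WT in DoxTam, at 0.08 on the log2 scale, and both genes were above Tam. *Slc7a10*, encoding the serine and glycine carrier Asc-1, was under 0.1 FPKM, and *Slc7a12* was listed at 0 in every library.

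Glutamate and aspartate. *Slc1a1* encodes EAAT3, the glutamate carrier found widely outside glia, and was at 11.0 FPKM in WT, 14.9 FPKM in Tam and 14.8 FPKM in DoxTam. The treated libraries were almost equal, and both lay above WT with ratios of 1.36 (1.19 to 1.54) and 1.35 (1.19 to 1.52). *Slc1a3*, encoding EAAT1, known from astrocytes, was at 7.74, 6.60 and 8.53 FPKM, lowest in Tam. The other EAAT genes, *Slc1a2*, *Slc1a6* and *Slc1a7*, and *Slc7a13*, which encodes an aspartate and glutamate carrier of the kidney, were under 1 FPKM in all libraries. The group summed to 19.3, 22.6 and 23.4 FPKM.

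Cystine. Neither gene of this group was expressed to a degree that these depths can measure. *Slc7a11* encodes xCT, which takes up cystine in exchange for glutamate, and was at 0.0872, 0.159 and 0.110 FPKM, about 12 fragments or fewer. *Slc7a9*, encoding the renal cystine carrier, was at 0.156, 0.458 and 0.0732 FPKM, about 5 fragments or fewer.

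Lysosomal and less studied *Slc38a* genes. *Slc38a9* encodes the lysosomal carrier that reports arginine to mTORC1, and was at 3.43, 3.20 and 4.09 FPKM. *Slc38a7*, encoding a lysosomal glutamine exporter, was at 8.86, 9.24 and 7.01 FPKM. Both differed between libraries by less than 1.5-fold. *Slc38a10* (mm9, chr11:119965265-120012665, minus strand), whose substrates are less well defined, was at 33.0 FPKM in WT, 27.7 FPKM in Tam and 21.6 FPKM in DoxTam. It was highest in WT and lowest in DoxTam, with a DoxTam over WT ratio of 0.655 (counting interval 0.603 to 0.709) from about 822 and 2222 fragments. Its transcript is 57.6% GC, where the DoxTam trend was -0.27, and with the trend removed its log2 fold was -0.32 in place of -0.59. A gene model on the other strand, *Gm11769*, overlaps its exons. *Slc38a6* was at 2.92, 3.61 and 3.67 FPKM, and *Slc38a8* and *Slc38a11* stayed under 0.3 FPKM. The group summed to 48.4, 44.0 and 36.6 FPKM.

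Nucleobases. *Slc43a3*, the purine nucleobase carrier of its family, was at 3.77 FPKM in WT, 2.46 FPKM in Tam and 2.59 FPKM in DoxTam. Both treated libraries lay below WT, with ratios of 0.652 (0.443 to 0.925) and 0.688 (0.496 to 0.955), from 138 fragments or fewer. On the log2 scale of FPKM + 1, which understates folds of low genes, it was inside 1.5-fold at -0.46 and -0.41.

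The plot of sums by substrate shows how far each group rested on a single gene. Between WT and Tam, the sum of the large neutral group was lower and that of systems A and N was higher, each through its leading gene. The cationic sum was lowest in Tam and highest in DoxTam. The small neutral sum (39.6, 33.9 and 31.9 FPKM) and the lysosomal and less studied *Slc38a* sum were highest in WT and lowest in DoxTam on the deposited scale.

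The 15 transporter genes under 1 FPKM in every library had their highest levels at 0.446 FPKM in WT (*Slc38a5*), 0.689 FPKM in Tam (*Slc1a6*) and 0.223 FPKM in DoxTam (*Slc7a2*). Of these 15, 11 were above WT in Tam and 2 in DoxTam. Over all 11098 genes under 1 FPKM, 56.1% were above WT in Tam and 22.3% in DoxTam, so the same lean ran through all low genes. At 0 were 2 of the 15 in WT, 1 in Tam and 6 in DoxTam. Most rest on a few fragments, and their differences could not be measured at these depths. The part of the unequal share of genes at 0 was not tested.

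Other amino acid genes were read from lists by function, each count to be set beside the shares of all genes given above. None of 17 further transporters of the plasma membrane was past 1.5-fold in any comparison as deposited (7, 6 and 7 of them were compared). Their median log2 fold was 0.28 in Tam against WT, 0.16 in DoxTam against WT and -0.15 in DoxTam against Tam. Among them *Slc6a15* was at 0.51 in DoxTam against WT, and past 1.5-fold after rescaling to the same total, at 0.81. Of 8 mitochondrial carriers compared, only *Slc25a2* was past 1.5-fold as deposited. It was lower in DoxTam than in Tam at -0.70, where 5.73% of all genes were lower. None of 8 cysteine and glutathione enzymes was past it as deposited, though *Gclc* lay just inside in DoxTam against WT, at 0.58. After rescaling to the same total, *Slc25a44* (0.59) and *Gclc* (0.63) were higher in Tam than in WT. *Slc25a13* (0.62), *Gclc* (0.93) and *Gclm* (0.64) were then higher in DoxTam than in WT. The medians of all genes were then 0.15 in Tam and 0.32 in DoxTam.

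Of 15 enzymes of glutamine, glutamate and serine, none was higher and 3 were lower in Tam than in WT, where 6.99% and 3.59% of all genes were, and the median of the 15 was -0.23. *Phgdh*, which encodes the first enzyme of serine synthesis, was at 37.5, 18.5 and 23.5 FPKM in WT, Tam and DoxTam. It was lower in both treated libraries, by 0.98 and 0.66 on the log2 scale, but with the GC trend removed it was inside 1.5-fold in DoxTam, at -0.40. *Psat1*, the next enzyme, was at 106, 66.6 and 91.3 FPKM. *Psph*, the last, was at 29.4, 18.6 and 25.3 FPKM and is named after its values were seen. After rescaling to the same total both came inside 1.5-fold in Tam, at -0.51 and -0.50, and *Phgdh* in DoxTam at -0.31. *Glul*, glutamine synthetase, was at 109, 79.9 and 126 FPKM, the only one of the 15 higher in DoxTam than in Tam (0.65 on the log2 scale), where 2.09% of all genes were higher.

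Of 12 enzymes of threonine, arginine and branched-chain amino acids compared, *Arg2*, a mitochondrial arginase, was higher in Tam than in WT (0.85 on the log2 scale). None was past the line in DoxTam against WT as deposited, whereas *Arg2* (0.74) and *Bckdhb* (0.63) were higher there after rescaling to the same total. *Bcat1*, a branched-chain transaminase, was lower in DoxTam than in Tam (-0.60, and -0.40 after rescaling to the same total). Of 19 genes of amino acid sensing by mTORC1, the Rag GTPase gene *Rragd* was higher in Tam than in WT (1.02) and lower in DoxTam than in Tam (-0.79). *Rragb* was higher in DoxTam than in Tam (0.80), and *Lamtor5*, of the Ragulator complex, was higher in DoxTam than in WT (0.60). A single gene of 12 or of 19 is near the shares of 6.99% and 4.12% of all genes higher and 5.73% lower in these comparisons. For *Rragb*, 1 of 19 stands beside 2.09% of all genes higher in DoxTam against Tam, and 1 gene is too few to set apart from that share.

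The ATF4 response is the set of genes that cells switch on when amino acids are scarce, and *Slc38a2* is a known target of it. Of 13 other genes listed for this response and compared, which include the regulators *Atf4* and *Eif2ak4*, none was higher in any comparison as deposited. After rescaling to the same total, *Atf4* (0.60) and *Nupr1* (0.66) were higher in DoxTam than in WT, where the median of all genes was 0.32. As deposited, 1 of the 13 was lower in each comparison, against 3.59%, 5.78% and 5.73% of all genes lower. *Trib3* was at 16.9, 10.2 and 10.8 FPKM, lower than WT in both treated libraries (-0.67 and -0.60). With the GC trend removed it was inside 1.5-fold in both, at -0.52 and -0.32, and after rescaling to the same total at -0.54 and -0.27. *Ddit4* was lower in DoxTam than in Tam (-0.61), and inside the line with the GC trend removed (-0.49) and after rescaling (-0.40). The median of the 13 was -0.18 in Tam against WT, -0.31 in DoxTam against WT and 0.07 in DoxTam against Tam, on the deposited scale. The median in DoxTam against WT was not kept under other settings. With the GC trend removed the middle gene of the 13 was *Cebpg*, at -0.02. After rescaling to the same total it was *Atf5*, at 0.01.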

How the data were processed

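RNA-seq of 3 libraries was analysed, 1 each for WT, Tam and DoxTam, grouped by their labels. The authors deposited 2 tables, each of 1 treated library against WT, with FPKM values made with TopHat, Bowtie (versions not given) and Cufflinks 2.0.0 on mm9, by the submitters' processing notes. The authors' own log2 fold, test statistic, p-value, q-value and significance columns were not used. Tables were paired by symbol. A total of 27 symbols differed between them, WT levels differed by over 1% for 2 genes (0 transporter genes), and 0 columns were left without a library. DoxTam against Tam was computed across tables that the authors made separately.

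Folds are log2((FPKM + 1)/(FPKM + 1)). Depth was estimated from the FPKM of a single fragment, taking transcript length less 200 bases, and is approximate. Counting intervals are exact binomial (95%) on approximate fragments. GC content came from the longest coding transcript (GENCODE, mm9), with lowess (span 0.2, statsmodels 0.14.6). Steps were tested on simulated data. Transporter genes at 1 FPKM in any library were named with all levels, the others by range, except the cystine carriers, whose levels are given. From each other list the counts and up to 2 genes per direction past 1.5-fold were named, and *Slc3a1* and *Slc3a2* always. *Psph* and some genes past 1.5-fold only after rescaling to the same total were added. Genes and lists were chosen with earlier results of these data known. *Castor1*, *Castor2* and *Samtor* were not found by symbol. Primitive endoderm markers summed to 3.83, 3.44 and 3.61 FPKM. Other settings tried were pseudocounts of 0.1 and 5 FPKM, no filter, 5 FPKM, rescaling to the same total with or without small RNA genes, centring, GC removal, 2-fold and genes marked OK in the deposited status column.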

Additional observations from a re-analysis of the deposited data

How the results depend on the processing

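No paired analysis was possible because each condition has 1 library and the labels give no replicate numbers. In Tam against WT, 2 transporter genes were higher (*Slc38a2*, *Slc7a4*) and 2 lower (*Slc43a3*, *Slc7a5*) at a pseudocount of 0.1 FPKM, 0 were higher with the GC trend removed, 0 were lower when rescaled to 1 total, and 0 were past 2-fold in either direction. In DoxTam against WT, 0 were lower at a pseudocount of 5 FPKM, after either rescaling (to the same total, with or without small RNA genes), with the GC trend removed and at 2-fold. Rescaling to the same total moved the median of all genes there to 0.32 and that of the transporter genes to 0.31, from below 0, and 4 were then higher (*Slc1a1*, *Slc38a2*, *Slc7a3*, *Slc7a7*). The cause is the scaling itself, since the summed FPKM of the libraries differ and small RNA genes hold much of them. In DoxTam against Tam, 0 were higher at a pseudocount of 5 FPKM and at 2-fold, and 3 after rescaling to the same total (*Slc38a1*, *Slc7a3*, *Slc7a7*). Without the filter 1 was lower (*Slc1a6*) and the median turned to -0.040, since genes under 1 FPKM entered. *Slc38a10* in DoxTam against WT was at -0.24 after rescaling to the same total, -0.58 when small RNA genes were not counted, -0.51 at a pseudocount of 5 FPKM and -0.32 without the GC trend. *Slc7a7* was at 0.52 in DoxTam against Tam at that pseudocount. Each of the 4 genes past 1.5-fold kept its direction under centring, both rescalings and GC removal, in the comparison in which it was past it. The other settings cannot change the sign of a fold. Depth limits the 15 genes under 1 FPKM, and the lack of replicates limits all.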
